A study of Mus musculus with 8 samples.

Results

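Mouse melanoma lines 112 and 113 both lack STAT3, and their open chromatin was compared by ATAC-seq to describe which loci, region classes and gene groups differ within one genotype. The comparison took the 4 knockout libraries, 2 of each line, out of 8 libraries in the series, and tested 99773 of the 148664 regions in the deposited table of raw coverage counts. Every region that passed the filter on low counts was included, and beyond that filter no region was chosen by its values. Per the labels, all lines were grown from lymph node cell suspensions of mice with cutaneous melanoma that arose at 25 to 30 weeks, and were kept as pools of the 2 genotypes. Lines 112 and 113 carry the deleted allele (Stat3∆, labelled STAT3 knockout), while lines 119 and 73 carry the floxed allele (Stat3fl, labelled wild type). The driver of the Cre recombinase and the alleles that gave the tumours are not given in the sources used here. One label calls each line a clone, and sample titles carry an unexplained p number (p18 in line 112 and p44 in 113 among the knockouts, p14 in line 119 and p68 in 73 among the wild types). Each reaction held 50000 cells and fragments over 1200 bp were removed before sequencing. Replicates 1 and 2 of a line are labelled biological replicates, with no word on separate cultures. P-values therefore measure the spread between 2 libraries of each line, and the test compares these lines, not a genotype.

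ATAC-seq uses the Tn5 transposase, which inserts sequencing adapters where nucleosomes leave the DNA free, so reads pile up at active promoters and enhancers. Cytokine receptors such as those of the IL-6 family switch on STAT3, which then binds DNA and drives transcription. MITF drives melanin synthesis and melanocyte identity, and melanoma cells are known to move between a pigmented, MITF-high state and dedifferentiated states marked by receptors such as AXL. C/EBP factors are basic leucine zipper proteins of differentiation and inflammation, and the series title links STAT3, C/EBP and the MITF pigmentation pathway. Cultured tumour lines also gain and lose stretches of chromosome, and an ATAC-seq count rises with the number of DNA copies as well as with accessibility.

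Promoters whose covering region differed most firmly between the lines are shown here because the later values refer to them, 2 that were more open in line 112 and 2 in line 113. Each sequence runs from 250 bases before to 50 bases after the transcription start, on the strand of the gene, and was taken from RefSeq on GRCm38.p6. The genes were chosen by the size or the p-value of their difference. Capitals mark matches to the motifs searched on both strands: CACGTG and CATGTG (E-boxes of the kind MITF reads), TGANTCA (AP-1), GGAATG (TEAD), TTCNNNGAA (STAT), TTNNGNAA (C/EBP), TGACGTCA (CRE) and ACAAAG (SOX). Slc25a13, a mitochondrial aspartate-glutamate carrier (chr6:6217124-6217423, minus strand), holds an AP-1 match that overlaps a CACGTG, and Rbmx, an RNA-binding protein of the spliceosome (chrX:57392987-57393286, minus strand), holds a pair of SOX matches, one on each strand. Foxd1, a forkhead factor (chr13:98353995-98354294, plus strand), holds CATGTG, and Ell2, an elongation factor of RNA polymerase II (chr13:75707234-75707533, plus strand), holds a CRE.
Slc25a13: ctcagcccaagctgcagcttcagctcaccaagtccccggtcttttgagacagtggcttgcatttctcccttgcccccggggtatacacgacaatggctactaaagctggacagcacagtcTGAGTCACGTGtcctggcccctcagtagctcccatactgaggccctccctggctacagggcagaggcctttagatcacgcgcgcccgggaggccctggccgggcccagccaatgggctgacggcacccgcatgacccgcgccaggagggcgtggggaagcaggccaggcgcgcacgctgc
Rbmx: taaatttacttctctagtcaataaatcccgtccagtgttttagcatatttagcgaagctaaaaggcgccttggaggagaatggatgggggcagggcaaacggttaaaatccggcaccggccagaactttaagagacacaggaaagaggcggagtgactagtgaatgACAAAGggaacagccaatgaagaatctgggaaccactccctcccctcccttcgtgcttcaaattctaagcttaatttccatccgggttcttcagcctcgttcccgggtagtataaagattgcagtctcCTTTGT
Foxd1: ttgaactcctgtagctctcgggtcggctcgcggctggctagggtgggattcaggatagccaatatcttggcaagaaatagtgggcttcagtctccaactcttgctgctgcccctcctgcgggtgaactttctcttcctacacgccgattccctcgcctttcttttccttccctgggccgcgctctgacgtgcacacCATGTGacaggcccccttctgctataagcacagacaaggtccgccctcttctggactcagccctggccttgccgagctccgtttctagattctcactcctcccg
Ell2: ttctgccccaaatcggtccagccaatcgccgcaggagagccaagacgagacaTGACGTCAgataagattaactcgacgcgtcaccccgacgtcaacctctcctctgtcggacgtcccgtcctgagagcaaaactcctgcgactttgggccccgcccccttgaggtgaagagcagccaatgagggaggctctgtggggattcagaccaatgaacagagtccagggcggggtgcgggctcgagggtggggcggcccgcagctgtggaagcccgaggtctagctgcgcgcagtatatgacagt

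Among 21262 starts in the RefSeq table, CACGTG lay in 7.84% of windows of this length, TGANTCA in 6.99%, TGACGTCA in 2.23%, ACAAAG in 16.8% and CATGTG in 11.5%. Further promoters that the text names, those of Svip, Pou3f2, Dusp23 and Sdk1, held none of the searched motifs. Such a match describes the letters only.

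Total counts in regions were 3993473 and 2697546 in the libraries of line 112, against 5029386 and 4450860 in those of line 113. The number of deposited peaks moved with them, at 38743 and 20387 in line 112 and 51700 and 52250 in line 113. Line 113 also had a larger share of its counts in the strongest decile of regions, 51.1% and 50.7% against 44.4% and 38.7%. Pearson's correlation of log2 CPM across regions was 0.867 between the replicates of line 112, 0.934 between those of line 113, and 0.716 to 0.782 between lines. Of 10 melanocyte markers, 10 had a peak at a gene end in both libraries of line 113 and 7 in both of line 112. Tyr, Tyrp1 and Ednrb had no peak shared by both libraries of line 112, of which replicate 2 had only 20387 peaks. Markers of other cells less often had one in both libraries of a line. The numbers were 1 of 16 for lymphocytes in line 112 and 4 in line 113, and 1 and 2 of 13 for macrophages. They were 1 and 5 of 13 for fibroblasts, 0 and 1 of 10 for endothelial cells, and 0 and 0 of 10 for keratinocytes. Schwann cells, which share the neural crest origin of melanocytes, had 5 and 6 of 10. Among the lymphocyte and macrophage markers, Cd2 and Spi1 had such a peak in both lines, and Cd4, Cd79a, Ebf1 and Flt3 in line 113 alone. Ptprc, the pan-leukocyte marker, and Cd3e, a subunit of the T cell receptor complex, were among those without one. Within 10 kb of the gene, shared peaks were more frequent, with 6 and 10 for lymphocytes, 4 and 8 for macrophages, and 6 and 8 for fibroblasts. Endothelial cells had 2 and 6, keratinocytes 3 and 5, Schwann cells 7 and 9, and melanocytes 7 and 10.

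The lines differed widely. By edgeR's quasi-likelihood test with Benjamini-Hochberg adjustment (adjusted p under 0.05), 25669 of the 99773 regions differed, a share of 25.7%. Of these, 12281 (12.3% of tested regions) were more open in line 112 and 13388 (13.4%) in line 113. Differences are given throughout as the log2 ratio of line 113 over line 112, so that negative values mean more open in line 112, with the standard error of the fit. Among passing regions, those more open in line 112 had the larger differences, with a median log2 ratio of -1.63 against 1.19 for those more open in line 113. The former were also weaker, with median CPM of 5.80 in line 112 and 1.67 in line 113, against 7.52 and 18.9 for the latter. A weak region needs a larger ratio to pass, and the part of this in the sizes was not tested. A log2 ratio of at least 3 in size was reached by 375 of the former and 171 of the latter. At 64922 of the tested regions (65.1%) the libraries of the lines did not overlap in CPM, so lack of overlap at a named region is common. Without replicate 1 of line 113 only 4757 regions passed, and without its replicate 2, 9048. Scaling to total counts in place of TMM (trimmed mean of M values) moved the median over all regions from -0.04 to -0.24, and the share of passing regions that were more open in line 113 from 52.2% to 35.0%. Scaling on gene-end regions moved them to -0.34 and 24.0%. The balance of directions between the lines therefore rested on the scaling.

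The sign of the difference followed the strength of the region. In the weakest decile of regions, with a median of 2.36 CPM (counts scaled to the size of the library), the median log2 ratio was -0.81, and 27.2% of regions were more open in line 112 against 3.21% in line 113. In the strongest decile, with a median of 35.7 CPM, the median was 0.48, with 2.51% and 42.8%. Weak regions were thus more often higher in line 112 and strong regions in line 113. The filter on low counts could be met by the libraries of a single line, so a weak region could be tested through the line where it was high. The part of this filter and of library quality in the trend was not tested. Because of this trend the counts below are also given with corrected scaling, an alternative chosen after seeing the data, and so are the values of named regions that lost their call or moved by more than 1.5 times with it. It takes out a loess curve of the log2 ratio against strength and then the median of each 10 Mb window. The loess step alone left 17414 regions (17.5%), 8135 (8.15%) more open in line 112 and 9279 (9.3%) in line 113. With both steps, 10834 regions passed (10.9%), 4496 (4.51%) more open in line 112 and 6338 (6.35%) in line 113. Of the 25669 regions, 8201 also passed in the same direction and 85 passed in the opposite one.

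**Figure D1:**
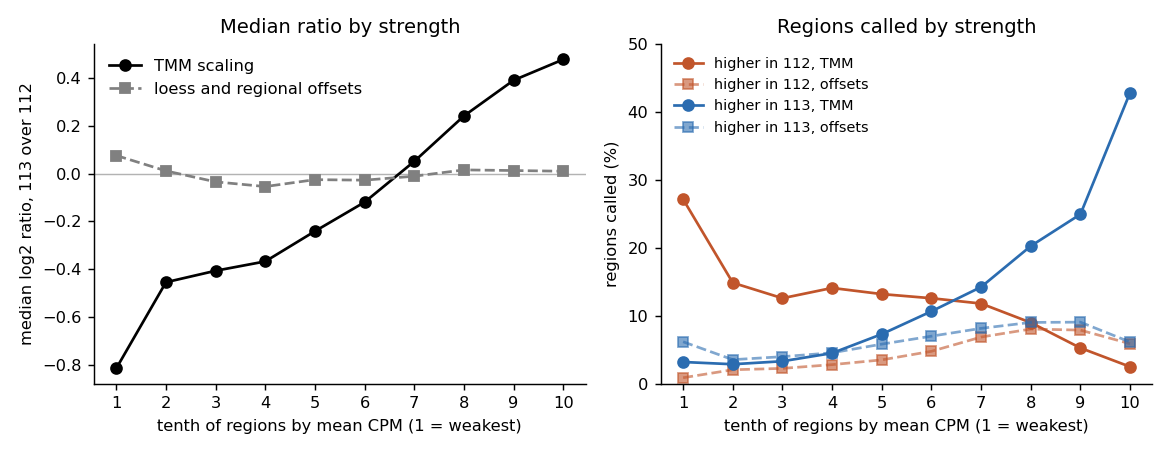
Median log2 ratio of line 113 over line 112 (left) and percent of regions passing in each direction (right) against the decile of regions by mean CPM, where 1 is the weakest. With TMM scaling the median rises from -0.81 in the weakest decile to 0.48 in the strongest, and the dashed lines show the corrected scaling.

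Whole stretches of chromosome differed together. Chromosome 6 had a median log2 ratio of -1.07, with -1.02 to -0.85 over the 4 pairs of libraries, and 3835 of its 7894 regions (48.6%) were more open in line 112, which is 31.2% of all such regions in the genome. Chromosome 3 had a median of 0.42, chromosome X 0.30 and chromosome 5 0.25 in favour of line 113, while chromosome 11 had -0.27 and chromosome 1 -0.24. In windows of 10 Mb, 25 of 265 had a median of at least 0.58 in size after the loess correction for strength. They formed 6 runs with 9306 regions (9.33% of those tested).

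Line 112 was higher over 0 to 80 Mb of chromosome 6, with a median log2 ratio of -1.21 (1839 of 3400 regions passing), and over 110 to 150 Mb, with -1.35 (1754 of 2872). It was also higher over the first 10 Mb of chromosome 11, with -1.12 (177 of 338). Line 113 was higher over the first 60 Mb of chromosome 3, with 1.24 (689 of 1227), over 10 to 60 Mb of chromosome 5, with 0.81 (538 of 1360), and over 60 to 70 Mb of chromosome 16, with 0.55 (28 of 109). As folds these medians were 2.31, 2.55, 2.18, 2.37, 1.75 and 1.46. The runs held 31.0% of the regions more open in line 112 and 9.93% of those more open in line 113. Outside them 8470 and 12059 of 90467 regions passed, 9.36% and 13.3%.

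Set against the mean of all 4 lines, line 112 lay 0.63 and 0.67 log2 units above it in the chromosome 6 runs, and line 113 lay 0.34 and 0.43 units below the mean. On chromosome 3 line 112 stood at -0.66 and line 113 at 0.48, with the wild-type lines between them at 0.27 (line 119) and -0.17 (line 73). On chromosome 11 line 113 stood apart at -0.67, with the other lines at 0.19, 0.09 and 0.46. On chromosome 5 line 112 stood at -0.48 and line 113 at 0.29, with 0.18 in line 119 and 0.02 in line 73. On chromosome 16 line 73 was the lowest at -0.81, with line 112 at -0.04, line 113 at 0.47 and line 119 at 0.26. The stretches were chosen for a difference between the knockout lines, so that they set these lines apart follows from the choice. More DNA copies and more open chromatin cannot be told apart in these counts. The same holds for the distal end of chromosome X, which lies in or beside the pseudoautosomal region shared with chromosome Y. All 10 regions tested from 170 Mb on were more open in line 112, with a median of -1.77 (-2.58 to -0.68). On chromosome Y a region beside the predicted gene Gm52481 had 111 and 117 CPM in line 112 and 39.2 and 41.1 in line 113. Xist, the RNA of the inactive X chromosome in female cells, had 9.91 and 11.1 against 16.7 and 14 CPM and did not pass (edgeR adjusted p 0.198).

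**Figure D2:**
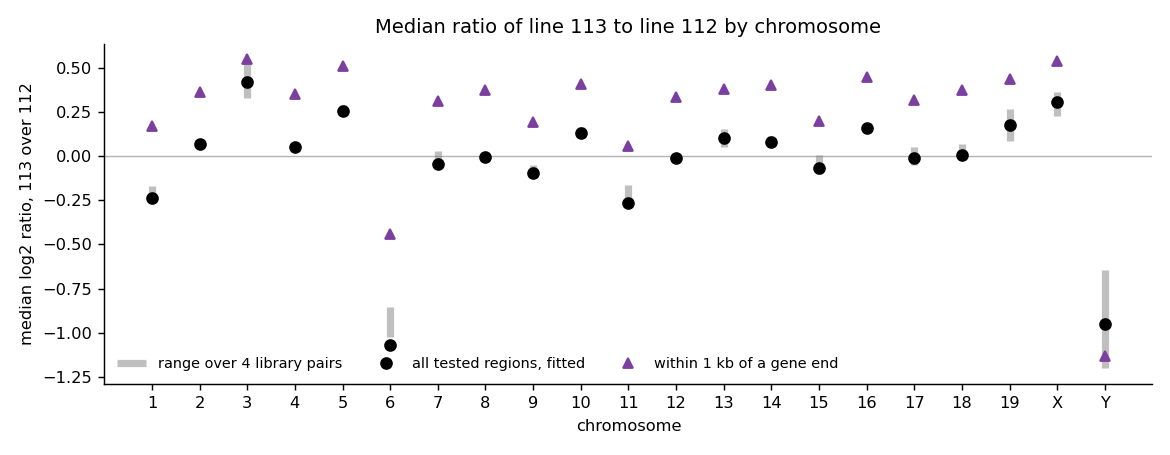
Median log2 ratio of line 113 over line 112 for each chromosome, over all tested regions (circles, with grey bars for the range of the 4 library pairs) and over regions within 1 kb of a gene end (triangles). Chromosome 6 lies at -1.07 and chromosome 3 at 0.42, and on every chromosome other than Y the triangle lies above the circle.

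The classes of regions leaned differently with TMM scaling. Of 16894 regions within 1 kb of an end of a protein-coding gene, 23.7% were more open in line 113 and 6.61% in line 112, with a median log2 ratio of 0.30. Of 19396 regions 10 to 100 kb from the nearest gene, 9.60% were more open in line 113 and 16.4% in line 112. Regions inside genes were near even, at 12.0% and 11.9% of 45014, as were those more than 100 kb from any gene, at 16.0% and 14.8% of 8969. With corrected scaling the gene ends no longer leaned, with 4.17% more open in line 113 and 4.20% in line 112 (704 and 710 regions). A lean to line 113 was then found in other classes, namely regions inside genes, with 7.09% against 3.97%, and regions more than 100 kb from any gene, with 10.1% against 5.42%.

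Promoters of the 2 directions differed in their base composition. Starts covered by a region more open in line 113 (3780 starts) had a median of 25 CG dinucleotides in 300 bases, against 14 for line 112 (551 starts) and 22 over all 11706 covered starts. CpG-rich promoters are known as broadly used ones. TGANTCA lay in 10.3% of the promoters more open in line 112, in 3.31% of those more open in line 113 and in 4.95% of covered starts. TGACGTCA, a CG-containing sequence read by CREB and ATF factors, went the other way, with 1.63%, 3.49% and 3.43%. With corrected scaling the sets were 516 and 525 starts, the medians 18 and 23 CG dinucleotides, and the shares 7.36% and 5.33% for TGANTCA and 1.36% and 4.00% for TGACGTCA. Covered starts held CACGTG in 10.3% of cases, against 8.17% and 10.8% of promoters more open in lines 112 and 113. With corrected scaling that order turned, to 11.8% and 8.0%. The other E-box, CATGTG, kept its order, with 8.53% and 6.01% of promoters more open in lines 112 and 113, against 7.31% of covered starts, and 9.50% and 7.24% with corrected scaling.

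At gene ends, the regions with the smallest p-values among those more open in line 112 were nearly closed in line 113. Clec11a, which encodes a secreted C-type lectin growth factor, had 87.4 and 67.2 CPM in line 112 and 4.12 and 6.77 CPM in line 113 (chr7:44304725-44305699, within 1 kb of an end and inside the gene). Its log2 ratio was -3.84 ± 0.25 (adjusted p 7.15e-11, edgeR). Both wild-type lines were open there, line 119 with 70.9 CPM and line 73 with 66.1. Wild-type levels are means of 2 libraries scaled over all 8 libraries, which moves knockout values a little from the scale of the 4 used elsewhere.

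The Slc25a13 promoter printed above had 48.5 and 39.4 CPM in line 112 and 4.58 and 3.01 in line 113, with a log2 ratio of -3.52 ± 0.30 (edgeR adjusted p 9.44e-09). For the Rbmx promoter the CPM were 22.2 and 19.3 against 0.458 and 1.5, a ratio of -4.39 ± 0.46 on the log2 scale (edgeR adjusted p 2.40e-07). Neither promoter overlapped between the lines, and at Rbmx line 113 also lay far below both wild-type lines (30.1 CPM in line 119 and 41.0 in line 73). Svip, an inhibitor of endoplasmic reticulum-associated degradation, had 48.2 and 37.5 CPM at its start in line 112 and 4.12 and 6.01 in line 113. There the wild-type lines parted too, with 47.6 CPM in line 119 and 4.74 in line 73. Il17ra, the receptor subunit for interleukin 17, had 49.3 and 41.6 against 5.73 and 7.27 CPM. Its log2 ratio of -2.81 ± 0.26 came to -1.80 with corrected scaling, as it lies in the chromosome 6 run. Ctsh (a lysosomal cathepsin) and Cpq (a carboxypeptidase) were likewise more open in line 112, by log2 ratios of -4.24 ± 0.41 and -3.24 ± 0.38.

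The gene ends more open in line 113 included developmental transcription factors. Foxd1 had 11.5 and 18.6 CPM at its start in line 112 and 92.6 and 85.5 in line 113, a log2 ratio of 2.60 ± 0.21 (edgeR adjusted p 4.16e-09; 2.00 with corrected scaling). Both wild-type lines were low there, with 15.4 CPM in line 119 and 11.1 in line 73, so that line 113 stood alone. En2, a homeobox factor of the midbrain and hindbrain, showed the same order, with 8.34 and 10.8 CPM in line 112 against 68.3 and 69.7 in line 113. Lines 119 and 73 had 14.6 and 9.20 CPM. The log2 ratio at En2 was 2.87 ± 0.22, and 1.57 with corrected scaling. Pou3f2 (BRN2), a POU factor studied in invasive melanoma, had 7.04 and 13.7 CPM in line 112 and 69.2 and 69.9 in line 113. Its log2 ratio was 2.79 ± 0.24 (edgeR adjusted p 1.16e-08; 1.98 with corrected scaling), and here line 119 was open with 49.2 CPM while line 73 had 6.40.

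At the Ell2 promoter line 112 was the one that stood apart. It had 3.91 and 6.69 CPM against 49.9 and 51.1 in line 113, a log2 ratio of 3.30 ± 0.28 (edgeR adjusted p 9.44e-09; 2.67 with corrected scaling), while lines 119 and 73 had 35.7 and 59.3 CPM. Dusp23, a small dual-specificity phosphatase, followed that order, with 24.0 and 15.2 CPM in line 112 against 94.9 and 90.2 in line 113, while the wild-type lines had 64.4 and 91.9. Sdk1, an adhesion protein of synapses, opened at its start in line 113, with 4.69 and 7.80 against 52.5 and 42.6 CPM, and was low in both wild-type lines (1.43 and 1.84 CPM). Fry, a large protein of cell shape, had a log2 ratio of 3.11 ± 0.27 (2.44 with corrected scaling) and wild-type levels of 30.9 and 8.96 CPM in lines 119 and 73. The regions named at gene ends kept their direction and passed with corrected scaling, at log2 ratios between -4.87 and -1.80 or between 1.57 and 2.67.

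**Figure D3:**
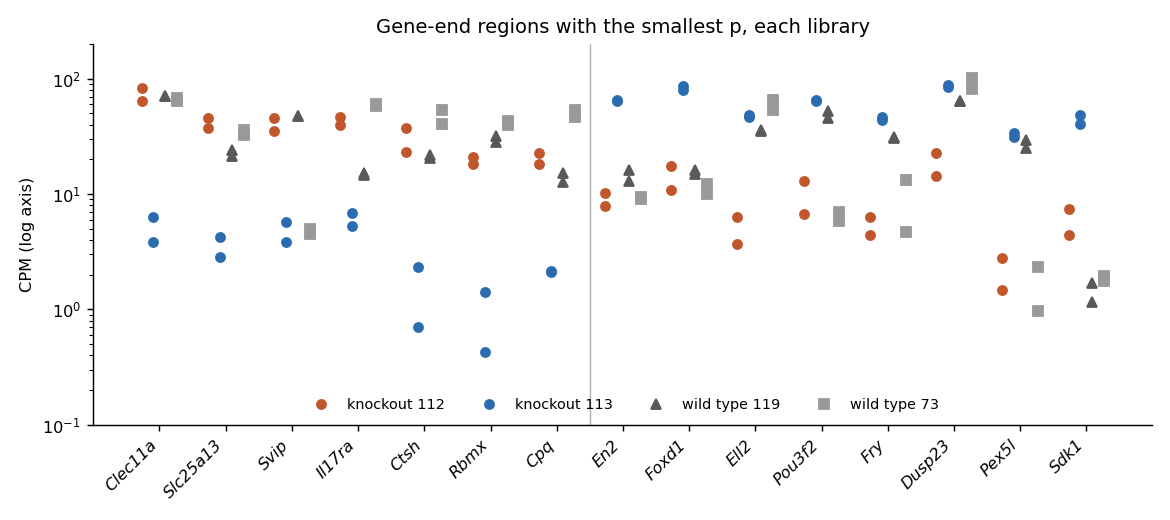
CPM in each of the 8 libraries (log axis, scaled over 8 libraries) for the gene-end regions with the smallest p-values, those more open in line 112 to the left of the grey line and those more open in line 113 to its right. The knockout lines do not overlap at any of these genes, which follows from the choice by p-value and holds for 65.1% of all tested regions. The wild-type lines lie with line 112 at some genes and with line 113 at others.

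Away from gene ends, single regions inside genes differed as well. In Mast4, a microtubule-associated kinase, a region at chr13:102905847-102906750 had 34.2 and 17.1 CPM in line 112 and 0.916 and 2.26 in line 113, a log2 ratio of -4.03 ± 0.45. Gramd1b, a sterol transport protein, had 43.0 and 25.3 against 3.44 and 2.76 CPM, and Tmem63c, a membrane protein of the TMEM63 family, 31.0 and 17.8 against 2.75 and 2.00 CPM. Tmem63c was open in line 112 alone, since lines 119 and 73 had 1.08 and 2.25 CPM.

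In the other direction a region of Ntm, the adhesion protein neurotrimin (chr9:29252713-29253307), had 1.30 and 1.11 CPM in line 112 and 21.3 and 21.8 in line 113, a log2 ratio of 4.10 ± 0.44. Pex5l, a regulator of HCN channels, was measured at one of its ends, with 1.56 and 2.97 against 33.2 and 36.1 CPM. Its log2 ratio of 3.98 ± 0.37 came to 2.36 with corrected scaling, as it lies in the chromosome 3 run. Both regions were open in line 119 (26.0 and 27.2 CPM) and nearly closed in line 73 (1.37 and 1.65 CPM). Magi2, a synaptic scaffold, and Mpped2, a phosphoesterase, followed the same order, with log2 ratios of 3.69 ± 0.45 and 3.60 ± 0.44 (2.61 and 2.95 with corrected scaling). By contrast Bcas1 and Epb41l3, a cytoskeletal linker at the membrane, were open in line 113 alone. Bcas1 had 0.782 and 2.97 CPM in line 112 against 24.1 and 21.3 in line 113, while lines 119 and 73 had 1.06 and 2.17.

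The region of this group tied most closely to melanocytes was at Kit, the receptor for stem cell factor. It lies inside the gene at chr5:75653405-75653941, 78414 bases from the nearest listed start of Kit. It had 2.09 and 4.09 CPM in line 112 and 45.1 and 25.6 in line 113, a log2 ratio of 3.58 ± 0.37 (edgeR adjusted p 2.40e-07; 3.04 with corrected scaling). In the wild-type lines it was closed as well, with 1.56 and 0.792 CPM. Summed over the 6 regions of Kit, the CPM were 43.8 and 54.2 in line 112 and 145 and 97.2 in line 113, without overlap, and 4 of the 6 were more open in line 113 (2 with corrected scaling).

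Several large genes differed at many of their regions. On chromosome 6, line 112 was more open at 44 of 91 regions of Sox5, a SOXD factor, at 34 of 48 of Mical3, 29 of 36 of the tetraspanin Tspan9, 28 of 54 of the phosphodiesterase Pde1c and 27 of 42 of the neurexin-family gene Cntnap2. With corrected scaling only 1, 1, 1, 1 and 2 of these regions passed in that direction. At Sox5 21 then passed in the other, and its median turned from -0.93 to 0.43. These chromosome 6 counts did not remain once the ratio of the surrounding stretch was taken out.

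Other genes kept their difference when their stretch was taken out. Tnr, Nrxn3 and Nrg1 were singled out after their values were seen. They ranked among the genes with the most regions more open in line 112 with corrected scaling, so that keeping a difference follows from the choice. At Tnr, the extracellular matrix protein tenascin-R on chromosome 1, 24 of 28 regions were more open in line 112, and 18 with corrected scaling. Summed over Tnr the CPM were 263 and 186 in line 112 and 90.5 and 79.4 in line 113. Nrxn3, a presynaptic adhesion protein, had 23 of 31 (15 corrected), with summed CPM of 275 and 213 against 97.1 and 76.7. Nrg1, the ligand of the ERBB3 receptor, had 9 of 12 under both scalings, and its sums were 105 and 83.2 against 33.4 and 30.8 CPM. None of these genes had a region more open in line 113.

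Auts2, a chromatin and cytoskeletal regulator of neurons, was the counterpart in line 113. Of its 39 regions 24 were more open there, 25 with corrected scaling, and its summed CPM were 112 and 152 in line 112 against 444 and 376 in line 113. Line 119 was close to line 113 at Auts2 (314 and 306 CPM, scaled over 8 libraries) and line 73 close to line 112 (99.6 and 130). Mecom, a zinc finger factor, had 19 of 30 regions more open in line 113, Ppargc1a, the coactivator PGC-1α of mitochondrial genes, 18 of 24, Zfp704 18 of 23 and Maml3, a Notch coactivator, 17 of 24. Their counts fell to 1, 1, 0 and 2 with corrected scaling, where 7 regions of Zfp704 were more open in line 112. Mecom, Zfp704 and Maml3 lie in the chromosome 3 run and Ppargc1a in that of chromosome 5. Outside the runs, Vps13d, a lipid transfer protein, had 16 of 49 (13 corrected) and the adhesion gene Cadm1 7 of 20 (11 corrected). Vps13d and Cadm1 were singled out after their values were seen.

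**Figure D4:**
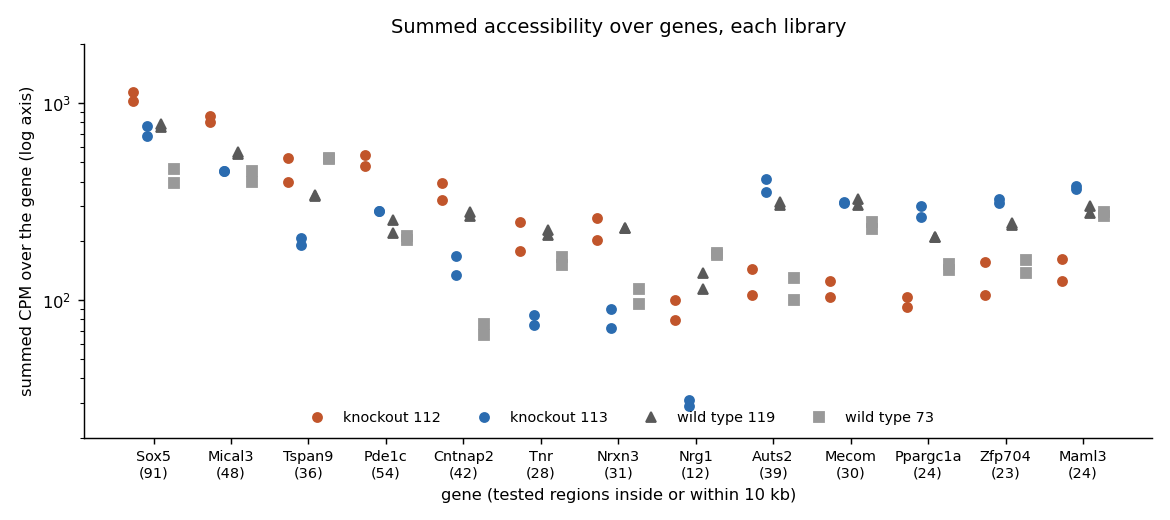
Summed CPM over the tested regions inside or within 10 kb of each gene (log axis, number of regions in brackets) in each of the 8 libraries, scaled over 8 libraries. The genes were chosen for their many passing regions, and lines 112 and 113 do not overlap at any of the 13. At Auts2 line 119 lies near line 113 while line 73 lies near line 112.

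The melanocyte programme was divided between the lines. Shares of the gene lists stand beside those over all tested regions, which were 12.3% for line 112 and 13.4% for line 113. With corrected scaling these were 4.51% and 6.35%. Of 22 melanin and melanosome genes, 13 had a region more open in line 113 and 6 one more open in line 112. Such counts of genes rise with the number of regions per gene, and no share over all genes stands beside them. The gene for the deleted factor, Stat3, had 34.2 and 31.2 CPM at its start in line 112 and 38.9 and 38.8 in line 113, a log2 ratio of 0.25 ± 0.20 (edgeR adjusted p 0.368). The labels do not say which part of Stat3 was removed, so this region does not check the deletion. None of its 6 regions passed. At the start of Mitf line 112 had 32.1 and 25.3 CPM and line 113 37.3 and 36.6, a difference of 0.35 ± 0.21 that did not pass (edgeR adjusted p 0.206). Of the 36 regions of Mitf, 3 passed in each direction.

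Genes for melanin synthesis and the melanosome held 159 tested regions, of which 30 (18.9%) were more open in line 113 and 10 (6.29%) in line 112. Their median log2 ratio was 0.40, against -0.04 over all regions. With corrected scaling 10 (6.29%) and 3 (1.89%) passed, where all regions had 6.35% and 4.51%, so that the share for line 113 was then at the background. Dct, the dopachrome tautomerase of eumelanin synthesis, had 27.9 and 24.9 CPM at its start in line 112 and 70.1 and 57.6 in line 113, a log2 ratio of 1.27 ± 0.19 (edgeR adjusted p 4.12e-05; 0.62 with corrected scaling). Lines 119 and 73 had 4.81 and 0.615 CPM there. At Tyrp1, a sister enzyme, the start had 6.26 and 5.94 against 19.0 and 12.5 CPM, with a log2 ratio of 1.37 ± 0.35 that came to 0.82 (edgeR adjusted p 0.126) with corrected scaling. A second Tyrp1 region, 713 bases beyond the gene, held under both, at 2.11 ± 0.40. Tyr, the rate-limiting enzyme, had 23.7 and 17.1 against 22.7 and 17.8 CPM 479 bases from its start, and the libraries of the lines overlapped. Without replicate 1 of line 113 the edgeR adjusted p was 0.0763 at Dct and 0.212 at the start of Tyrp1.

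The region with most counts at an end of the melanosome protein gene Pmel, which is also the end of its neighbour Rab5b, passed at 0.51 ± 0.18 (edgeR adjusted p 0.0336), and had -0.12 with corrected scaling. Mlana, another melanosome protein, had 11.0 and 13.4 CPM in line 112 and 11.7 and 9.27 in line 113, with overlap. Slc7a11, the cystine transporter that feeds pheomelanin, had a region inside the gene with 1.83 and 2.23 against 15.4 and 10.02 CPM, with a log2 ratio of 2.65 ± 0.44 (1.61 with corrected scaling). Line 112 was the higher one at Gpr143, the melanosomal receptor mutated in ocular albinism, with 20.9 and 19.7 against 6.19 and 4.76 CPM, a log2 ratio of -1.88 ± 0.34 (-2.52 with corrected scaling). It was also higher beside Mlph, the melanophilin of melanosome transport, with 24.8 and 25.3 against 8.48 and 9.77 CPM. The melanin genes thus did not move as one. Without replicate 1 of line 113 the edgeR adjusted p was 0.181 at Mlph and 0.422 at Pmel, and without replicate 2 it was 0.0836 and 0.353, and 0.0645 at Gpr143.

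Among the transcription factors of melanocytes and neural crest, 51 of 279 regions (18.3%) were more open in line 112 and 35 (12.5%) in line 113. Of the 51, 44 belonged to Sox5. With corrected scaling the counts were 9 and 39, with 21 of the 39 at Sox5. Sox10, the neural crest factor upstream of Mitf, was even at 901 bases from its gene, with 26.6 and 24.9 against 27.7 and 29.3 CPM. Sox6 had 11 of 36 regions more open in line 113 (8 corrected) and 1 in line 112. One of these had 4.43 and 8.91 against 27.7 and 24.3 CPM. Ets1 had a region of 23.7 and 20.1 against 51.5 and 51.9 CPM, a log2 ratio of 1.23 ± 0.20 (0.65 with corrected scaling), and Pax3, the paired box factor that acts on Mitf, had 3 of 26 regions more open in line 113 and none in line 112. The Ets1 region missed the threshold narrowly without replicate 1 of line 113 (edgeR adjusted p 0.051).

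Receptors and ligands of melanocytes were split by gene. Ednrb, the endothelin receptor of the lineage, joined Kit in favour of line 113, with 8.34 and 14.9 against 41.2 and 33.3 CPM at its start and a log2 ratio of 1.73 ± 0.27 (edgeR adjusted p 6.15e-05; 1.04 with corrected scaling). Nrg1 was more open in line 112. Its receptor Erbb3 had 2 of 7 regions more open in line 112 and 1 in line 113, with a median of -0.17 (3 and 0 with corrected scaling). A region 4123 bases from Erbb3 had 12.8 and 5.94 against 2.06 and 2.76 CPM, and missed the threshold without replicate 1 of line 112 (edgeR adjusted p 0.13) or of line 113 (0.0791). Fgfr1, a fibroblast growth factor receptor, had 4 of 9 regions more open in line 112 under both scalings, one of them with 40.4 and 33.1 against 12.6 and 10.5 CPM (edgeR adjusted p 0.0545 without replicate 2 of line 113). Over this list 21 of 101 regions (20.8%) were more open in line 112 and 9 (8.91%) in line 113, or 19 (18.8%) and 10 (9.90%) with corrected scaling. Nrg1 alone held 9 of the 21 and 9 of the 19.

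Genes of dedifferentiated melanoma states had 45 of 135 regions (33.3%) more open in line 112 and 18 (13.3%) in line 113, against 12.3% and 13.4% over all regions, with a median log2 ratio of -0.52. With corrected scaling 13 (9.63%) and 6 (4.44%) passed. Fibroblast markers, which share Pdgfra and Pdgfrb with this list, moved with it, with 32.4% more open in line 112 and a median of -0.69, and their part in the result was not tested. Axl, the receptor tyrosine kinase named for that state, had 28.4 and 24.1 CPM at its start in line 112 and 3.67 and 6.77 in line 113, a log2 ratio of -2.34 ± 0.34 (edgeR adjusted p 1.95e-05). Both wild-type lines were open there, with 25.9 and 37.5 CPM. A region beside Pdgfra, a growth factor receptor, had 13 and 8.54 against 2.29 and 2.51 CPM. Nes, the intermediate filament nestin, went the other way at its start, with 13.3 and 24.1 against 42.6 and 45.6 CPM and a log2 ratio of 1.27 ± 0.24.

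For EMT factors and cadherins, 19 of 93 regions (20.4%) were more open in line 113 and 9 (9.68%) in line 112. With corrected scaling 5 (5.38%) and 6 (6.45%) passed. Cdh11, a mesenchymal cadherin, had 3.13 and 2.60 against 24.5 and 23.6 CPM inside the gene, a log2 ratio of 3.04 ± 0.37, and the wild-type lines were low (3.27 and 0.922 CPM). Twist2, a mesenchymal bHLH factor, gave both directions, with a log2 ratio of -1.68 ± 0.37 at 15086 bases from its start and 0.77 ± 0.29 at the start, the latter lost with corrected scaling. Without replicate 1 of line 113 neither passed (edgeR adjusted p 0.16 and 0.422), and the region at the start also failed without replicate 2 of line 113 (0.214) or replicate 1 of line 112 (0.0771).

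Genes of the STAT3 pathway passed in no higher share than all regions. Of 172 regions 21 (12.2%) were more open in line 113 and 11 (6.40%) in line 112, with a median log2 ratio of -0.03, and 9 and 8 with corrected scaling. Receptors of the IL-6 family differed by gene. Lifr had 4.17 and 10.4 against 36.2 and 40.8 CPM at a listed start, a log2 ratio of 2.47 ± 0.31 (edgeR adjusted p 2.69e-06; 1.78 with corrected scaling), and 3 of its 5 regions passed under both scalings. Osmr had 10.4 and 6.69 against 26.8 and 24.6 CPM in 1 of 5 regions (1.55 ± 0.30, and 0.90 with corrected scaling), and Il6ra 6.78 and 8.17 against 19.2 and 19.8 CPM at its start, 1 of 10 regions. Il6st, the common subunit gp130, had 1 of 5 regions more open in line 113 (0 with corrected scaling), and Il11ra1 had 1 of 4 more open in line 112 (0 with corrected scaling). Socs3, the feedback inhibitor and a classic STAT3 target, was even, with 26.9 and 24.5 against 26.3 and 22.8 CPM. Line 112 was higher 7750 bases from Jak3, the kinase of cytokine receptors with a common gamma chain, in a region inside its neighbour Unc13a, with 13.8 and 11.9 against 3.44 and 5.76 CPM. Without replicate 1 of line 113 the edgeR adjusted p was 0.0671 at Il6ra and 0.308 at the latter.

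The C/EBP family had 6 of 23 regions (26.1%) more open in line 113 and 0 in line 112, and none in either direction with corrected scaling. Cebpd had 27.9 and 28.2 against 48.8 and 54.1 CPM, a log2 ratio of 0.87 ± 0.19 that came to 0.28. Cebpa had 0.71 ± 0.22, which came to 0.32, and Cebpb, at 30.5 and 45.7 against 50.2 and 48.4 CPM, did not pass. AP-1 factors had 16 of 59 (27.1%) more open in line 113 and 4 (6.78%) in line 112. With corrected scaling these were 4 (6.78%) and 3 (5.08%). The stress-induced Atf3 had 22.7 and 23.0 against 63.5 and 45.9 CPM at its start. Maff, a small MAF factor, had the opposite order, with 13.3 and 9.29 against 3.21 and 2.76 CPM. Leaving out replicate 1 or 2 of line 113 ended the calls at Cebpd (edgeR adjusted p 0.153 and 0.169) and Cebpa (0.335 and 0.245), and leaving out replicate 1 that at Atf3 (0.14). The lean of both lists to line 113 was thus largely lost with corrected scaling.

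MAPK feedback genes, which are induced by ERK and restrain it, had 24 of 87 regions (27.6%) more open in line 113 and 4 (4.60%) in line 112. With corrected scaling 7 (8.05%) and 6 (6.90%) passed. Dusp5, a nuclear ERK phosphatase, held under both, with 10.7 and 11.5 CPM at its start in line 112 and 52.7 and 56.9 in line 113, a log2 ratio of 2.31 ± 0.23 (edgeR adjusted p 7.63e-08; 1.5 with corrected scaling). A region near Spred1, a RAS inhibitor, had 16.7 and 9.29 against 49.3 and 26.8 CPM. Cell cycle genes and inhibitors had 29 of 111 (26.1%) more open in line 113 and 7 (6.31%) in line 112. With corrected scaling these were 8 (7.21%) and 5 (4.50%). Cdkn2a, which encodes p16 and ARF, had 34.2 and 23.8 against 85.0 and 80.9 CPM, a log2 ratio of 1.5 ± 0.19 (edgeR adjusted p 2.73e-06; 0.71 with corrected scaling). The CDK inhibitor Cdkn1a had 13.6 and 23.4 against 48.1 and 41.4 CPM at a listed start. A region inside the cyclin gene Ccnd3 was higher in line 112, at 8.61 and 7.06 against 1.37 and 1.00 CPM. Without replicate 1 of line 113 the edgeR adjusted p was 0.2 near Spred1 and 0.0813 at Cdkn1a.

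Neural genes made up the largest lists. Axon guidance genes had 116 of 508 regions (22.8%) more open in line 113 and 52 (10.2%) in line 112, and 52 (10.2%) and 25 (4.92%) with corrected scaling, where all regions had 6.35% and 4.51%. Unc5c, a netrin receptor, had 29.2 and 30.8 against 96.5 and 81.7 CPM at its start, and Slit2, a ligand of ROBO receptors, 5.22 and 6.31 against 31.4 and 31.1 at a listed start. Their log2 ratios of 1.57 ± 0.18 and 2.45 ± 0.31 came to 0.65 and 0.96 with corrected scaling. The semaphorins Sema3b and Sema3f, neighbours on chromosome 9, were the other way round. Sema3b had 34.2 and 31.2 against 6.19 and 8.52 CPM, and the region near Sema3f 32.9 and 19.3 against 5.50 and 7.02.

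Genes of neural adhesion and synapses had 143 of 604 regions (23.7%) more open in line 112 and 90 (14.9%) in line 113. That balance became 43 (7.12%) and 52 (8.61%) with corrected scaling. Beside Tnr and Nrxn3, Cntn4, a contactin, had 18.3 and 5.57 against 0.916 and 0.501 CPM. Ctnna3, an alpha-catenin, had 3.13 and 4.09 against 33.2 and 31.1 CPM, and Chl1, an L1-family adhesion protein, 2.09 and 2.60 against 26.3 and 13.8. Chl1 and Cntn4 both lie on chromosome 6 and had opposite signs.

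Hox genes, the homeobox factors of body position, had 21 of 72 regions (29.2%) more open in line 112 and 1 in line 113, with a median log2 ratio of -0.78. The Hoxa cluster lies in the first chromosome 6 run, and with corrected scaling 5 and 1 passed. A region 5194 bases from Hoxa4 had 18.5 and 18.9 against 2.06 and 2.76 CPM and passed under both scalings, with -2.95 ± 0.38 and -2.07. Hoxa5, with 15.1 and 32.3 against 7.10 and 6.01 CPM, had a log2 ratio of -1.82 ± 0.35 that came to -1.08 and did not pass with corrected scaling (edgeR adjusted p 0.0551). The single region more open in line 113 lay between genes of the Hoxb cluster, 8443 bases from Hoxb5 and nearest Hoxb4, with 3.13 and 8.54 against 17.0 and 14 CPM. It missed the threshold without replicate 1 of line 113 (edgeR adjusted p 0.0856), as did Hoxa5 without replicate 2 (0.0591).

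Matrix genes were also divided. Collagens had 38 of 227 regions (16.7%) more open in line 112 and 14 (6.17%) in line 113. With corrected scaling 16 (7.05%) and 9 (3.96%) passed. Col5a1, a fibrillar collagen, had 43.8 and 40.1 against 18.8 and 19.5 CPM at its start, while a region in Col8a1 had 0.782 and 0.371 against 14.4 and 6.77 CPM. Without replicate 1 or 2 of line 113 Col5a1 did not pass (edgeR adjusted p 0.232 and 0.165). Integrins and laminins had 34 of 255 (13.3%) more open in line 113, near the 13.4% over all regions, and 12 (4.71%) in line 112. With corrected scaling 13 (5.10%) and 6 (2.35%) passed, both below the 6.35% and 4.51% over all regions. Lamb1, a laminin chain, had 12.3 and 12.6 against 47.2 and 42.1 CPM (1.84 ± 0.23, and 1.15 with corrected scaling), and line 119 was open there too (44.8 CPM) while line 73 was not (2.18).

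Proteases and their inhibitors were near balance, with 15 of 150 regions (10%) more open in line 112 and 20 (13.3%) in line 113. With corrected scaling 9 (6%) and 9 (6%) passed. Mmp14, a membrane-bound matrix metalloproteinase, had 3.39 and 5.57 against 29.6 and 22.6 CPM. Line 112 was higher 9338 bases from Plaur, the urokinase receptor, in a region inside its neighbour Cadm4, with 28.9 and 19.7 against 2.75 and 4.76 CPM, and at a listed start of the metalloproteinase Adam19, with 10.4 and 9.66 against 0.916 and 2.00 CPM. Adam19 was open in both wild-type lines (27.6 and 33.8 CPM), so that line 113 was the lowest of the 4.

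The Wnt pathway had 41 of 217 regions (18.9%) more open in line 112 and 27 (12.4%) in line 113. With corrected scaling 15 (6.91%) and 19 (8.76%) passed. Wnt5b, a ligand on chromosome 6, had 14 of 19 regions more open in line 112 and 7 with corrected scaling, and Tcf7l1, a nuclear effector on the same chromosome, had 40.2 and 28.2 against 5.50 and 8.02 CPM (-2.35 ± 0.30, and -1.72 with corrected scaling). TEAD, YAP and TAZ genes had 22 of 136 (16.2%) more open in line 112 and 14 (10.3%) in line 113. With corrected scaling these were 17 (12.5%) and 8 (5.88%). A region in Tead4, on chromosome 6, had 74.6 and 63.5 against 22.2 and 18 CPM (-1.78 ± 0.20, and -0.81 with corrected scaling). Of 17 regions of Wwtr1 (TAZ), on chromosome 3, 1 was more open in line 112 and 2 in line 113. Its summed CPM overlapped, with 199 and 143 in line 112 against 198 and 188 in line 113. With corrected scaling 9 passed for line 112, and its median moved from -0.09 to -1.01. These calls thus came with the correction and not from a higher level in line 112. Amotl2, a target and inhibitor of YAP, had 12.0 and 13 against 35.5 and 28.8 CPM (edgeR adjusted p 0.111 without replicate 1 of line 113). TGF-beta pathway genes had 15 of 161 (9.32%) more open in line 112 and 22 (13.7%) in line 113, or 4 (2.48%) and 7 (4.35%) with corrected scaling.

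Immune lists were small. Antigen presentation and interferon genes had 8 of 59 regions (13.6%) more open in line 112 and 3 (5.08%) in line 113. Cytokines and chemokines had 15 of 95 (15.8%) and 9 (9.47%). With corrected scaling these were 3 (5.08%) and 1 (1.69%), and 3 (3.16%) and 5 (5.26%). Housekeeping lists lost most of their passing regions with corrected scaling. Ribosomal protein genes, with 248 regions, had 45 (18.1%) more open in line 113 and 8 (3.23%) in line 112. With corrected scaling they had 11 (4.44%) and 3 (1.21%). Lysosomal genes with the TFE factors had 10 of 85 (11.8%) and 5 (5.88%), then 2 (2.35%) and 0.

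Regions at markers of other cells also passed. For line 112 the fibroblast, lymphocyte, keratinocyte and endothelial markers did so in larger shares than all regions. Lymphocyte markers had 9 of 50 regions (18%) more open in line 112 and 6 (12%) in line 113, and macrophage markers 0 and 5 of 38 (13.2%). Fibroblast markers had 23 of 71 (32.4%, against 12.3% over all regions) and 9 (12.7%), and endothelial markers 6 of 40 (15%) and 2 (5%). Keratinocyte markers had 6 of 35 (17.1%) and 5 (14.3%), and Schwann cell markers 8 of 73 (11.0%) and 7 (9.59%). With corrected scaling these became 0 and 8 (16% for line 113) for lymphocytes, 1 and 2 for macrophages, and 7 (9.86%) and 2 for fibroblasts. They became 2 and 2 for endothelial cells, 4 (11.4%) and 2 for keratinocytes, and 5 (6.85%) and 4 for Schwann cells. All regions then had 4.51% and 6.35%. Summed CPM at the ends of the lymphocyte markers was 102 and 106 in line 112 and 98.1 and 94.7 in line 113, and at the fibroblast markers 116 and 112 against 134 and 130. Over all regions of the fibroblast markers the sums had the opposite order, 529.6 and 549 against 483 and 454. The passing fibroblast regions included Col1a2 on chromosome 6 (-2.43 ± 0.44, and -1.51 with corrected scaling) and Prrx1, which had regions in both directions, of -2.57 ± 0.51 and 1.89 ± 0.39. In Prox1, the lymphatic endothelial factor, the start had 3.65 and 7.80 against 30.7 and 24.3 CPM. A further region at Prox1 had the opposite sign. Its log2 ratio was -1.92 without replicate 2 of line 112, and -2.23 and -2.32 without replicates 1 and 2 of line 113, where it did not pass. The part of other cells in the differences between the lines was not tested.

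**Figure D5:**
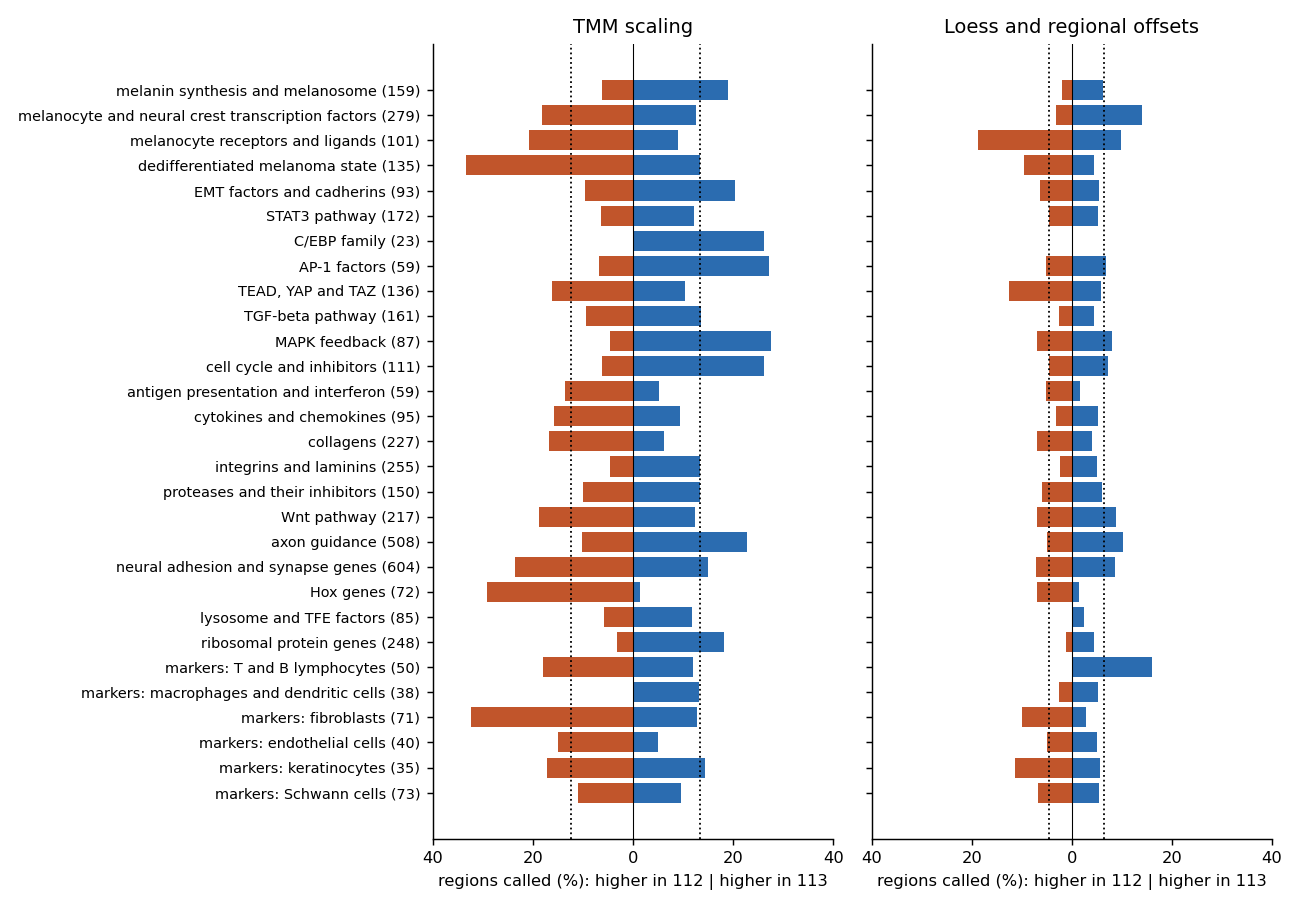
Percent of tested regions more open in line 112 (to the left) and in line 113 (to the right) for each gene list, with the number of regions in brackets, with TMM scaling (left panel) and with loess and regional offsets (right panel). Dotted lines mark the shares over all tested regions, 12.3% and 13.4% on the left and 4.51% and 6.35% on the right.

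Over the 29 lists, 15 had more regions open in line 112 and 14 in line 113, and with corrected scaling 9 and 11 of these kept that side. Among lists with over 100 regions, those that kept line 113 were the melanin genes, axon guidance genes, integrins and laminins, ribosomal protein genes, cell cycle genes, TGF-beta pathway and STAT3 pathway, the last with 9 against 8 regions. All tested regions leaned to line 113 too with this scaling, with 6.35% against 4.51%. Only axon guidance genes (10.2%) and cell cycle genes (7.21%) lay above that 6.35%, and the other lists had 4.35% to 6.29%. Those that kept line 112 were the receptors and ligands (18.8%), dedifferentiated-state genes (9.63%), collagens (7.05%), and TEAD, YAP and TAZ genes (12.5%), against 4.51% over all regions. Single genes carried much of this in 2 of the lists. Nrg1 held 9 of the 19 receptor and ligand regions, and Wwtr1 9 of the 17 TEAD, YAP and TAZ regions.

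MicroRNA genes near tested regions were followed because their products are short regulators whose seed, bases 2 to 8, selects the target messages. Within 1 kb of 243 hairpins lay 258 tested regions, of which 25 were more open in line 112 and 51 in line 113, or 18 and 12 with corrected scaling. These are 9.69% and 19.8% of the regions, against 12.3% and 13.4% over all regions, and 6.98% and 4.65% against 4.51% and 6.35% with corrected scaling. The mature sequences printed here, from RefSeq with the seed in capitals, belong to hairpins beside regions that were more open in line 112 and were chosen after their values were seen. The last is the same for the Mir199b and Mir199a-1 hairpins, and no seed is shared among the 4.
miR-210-3p: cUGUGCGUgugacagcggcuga
miR-130b-3p: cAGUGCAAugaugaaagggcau
miR-125b-5p: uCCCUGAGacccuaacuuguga
miR-199b-3p: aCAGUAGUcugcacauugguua
The region beside Mir210, the microRNA known for its induction by hypoxia, had 45.6 and 36.8 CPM in line 112 and 8.02 and 9.02 in line 113, a log2 ratio of -2.28 ± 0.26 (edgeR adjusted p 7.44e-07). Beside Mir130b and Mir301b, which share a region, the CPM were 21.9 and 17.5 against 3.67 and 6.27, a log2 ratio of -2.0 ± 0.35. Beside Mir125b-1 they were 12.0 and 12.3 against 1.83 and 2.00, a log2 ratio of -2.64 ± 0.42. Line 112 was higher at each of these without overlap. At Mir199b the values were 42.8 and 23.8 against 16.3 and 16.5 CPM and at Mir199a-1 8.61 and 11.1 against 2.75 and 5.26, with log2 ratios of -1.04 ± 0.26 and -1.29 ± 0.40. Beside Mir199a-2, a further hairpin of the miR-199a family, they were 3.39 and 4.09 against 1.15 and 0.501 CPM, a log2 ratio of -2.10 (edgeR adjusted p 0.00633) that did not pass with corrected scaling (-1.21, edgeR adjusted p 0.158). These are levels of open chromatin beside the hairpins and not of the microRNAs.

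The wild-type lines share no library with the comparison and show on which side each knockout line stood. Of 5634 regions more than 1 kb from a gene end that were more open in line 113 with corrected scaling, 54.4% overlapped no peak called in both replicates of a wild-type line, and 10.4% overlapped such a peak in both lines. Of 3786 such regions more open in line 112, 24.8% overlapped none and 38.5% overlapped one in both lines. All 82879 tested regions away from gene ends had 41.1% and 21.9%. With TMM scaling this contrast was small, since 40.9% of distal regions more open in line 113 overlapped none and 19.6% one in both lines, against 38.4% and 22.7% for line 112. At gene ends with corrected scaling 14.2% of the regions more open in line 112 and 14.8% of those more open in line 113 were without a wild-type peak, and 63.8% and 67.0% had one in both lines. With TMM scaling the gene ends parted widely, with 32.4% and 3.39% without one and 35.4% and 88.9% with one in both lines. These shares are a description with no test, and their order depended on the scaling.

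Peak calls were compared between the knockout lines as well. Of 17907 peaks called in both libraries of line 112, 373 (2.08%) overlapped no peak of line 113, while 13226 of 42208 peaks (31.3%) called in both libraries of line 113 overlapped none of line 112. The number of peaks per library differed with depth, and with the 20387 best-scoring peaks of each library the counts were 1434 of 15232 (9.41%) and 2523 of 17461 (14.4%). The Jaccard index, the shared length over the joint length, averaged 0.410 between lines (0.303 to 0.520), against 0.414 within line 112 and 0.664 within line 113. The libraries of line 112 shared about as much with each other as with those of line 113 by this measure. With equal numbers of peaks it was 0.506 within line 112 and 0.494 between lines.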

How the data were processed

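ATAC-seq libraries of 4 mouse melanoma lines were made by the submitters, who used Bowtie2 2.2.4, Picard 1.118, MACS2 2.1.1.20160309 and the mm10 (GRCm38) assembly, per the submitters' processing notes. The authors deposited 1 table of raw coverage counts over 148664 regions of 501 to 3708 bp in 8 libraries, and 1 peak list per library. In those lists the score, the fold enrichment and the −log10 p-value and −log10 q-value of each peak are the authors' deposited values, used only to rank or filter peaks within a list. The score and fold were otherwise not used.

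The 4 knockout libraries were fitted with edgeR 4.0.16 (R 4.3.3): filterByExpr with a minimum count of 10 and a minimum total of 15, TMM factors, and robust quasi-likelihood tests, whose p-values were adjusted by Benjamini-Hochberg over all tested regions and called under 0.05. The wild-type libraries stayed out of this fit, so that their spread did not enter it. CPM were computed from the counts with TMM library sizes. The standard error was taken from the F statistic. Corrected scaling used loess offsets with medians of 10 Mb windows of at least 50 regions taken out. The scripts were tested on simulated data.

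Regions were placed by the RefSeq gene table of GRCm38.p6, the patch release of the same build, and a region belongs to a gene if it lies inside it or within 10 kb. Peaks were compared with bedtools 2.31.1 by an overlap of at least 1 bp. A peak at a gene end means one within 1 kb.

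Named genes were fixed ones (Stat3, Mitf, Tyr, Tyrp1, Dct, Pmel, Mlana, Sox10, Cebpa, Cebpb, Cebpd, Socs3, Cdkn2a and Xist, each with its strongest gene-end region), the 8 per direction with the largest log2 ratio and at least 20 CPM in the higher line, the 8 per direction with the smallest p at gene ends, the 5 genes per direction with the most passing regions, and up to 3 per direction from each list, of which the text gives a subset. A few named by this rule are not reported here. Tnr, Nrxn3, Nrg1, Vps13d and Cadm1 were added as whole genes outside the rule, with their counts known. Members and lists were chosen with earlier results of these data known. DESeq2 1.42.0, limma-voom (limma 3.58.1), other scalings, filters, a replicate block and each library left out were alternatives.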

Additional observations from a re-analysis of the deposited data

How the results depend on the processing

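The counts and the balance of directions moved with the scaling, the filter and the libraries included. Beside 25669 regions passing (12281 more open in line 112, 13388 in line 113), the DESeq2 Wald test gave 7530 (2176 and 5354), with 34819 adjusted p-values not set by its own filter. A minimum log2 ratio of 1 gave 2256 (1246 and 1010), corrected scaling 10834 (4496 and 6338), a mean count of at least 50 gave 4408 (2491 and 1917) of 21053 tested, and regions overlapping a peak 13911 (7915 and 5996) of 61828. TMM at gene ends gave 20721 and 6531 by direction. Loess offsets gave 8135 for line 112, regional offsets 7515, and the fit of all 8 libraries 22152 for line 113. Leaving out 1 library gave 4757 to 29752 in all, 1986 to 9951 for line 112 and 2771 to 19801 for line 113, the lowest without replicate 1 of line 113.

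In the weaker part of regions by mean count, the median log2 ratio was -1.46 on chromosome 6, 0.11 on chromosome 3 and -0.14 on chromosome 5, the last with its sign turned. That median was negative on every chromosome other than 3 and Y, from -1.46 on chromosome 6 to -0.06 on chromosome X. The turned sign was therefore not particular to chromosome 5. With 1 library left out chromosome 3 gave 0.34 to 0.58 and chromosome 5 0.19 to 0.30. Peaks of line 112 alone numbered 990 with a reciprocal overlap of 50 percent, 1434 with equal numbers of peaks and 198 with a −log10 q of at least 5, and peaks of line 113 alone 2523 with equal numbers. Corrected scaling turned the sign at Pmel (-0.12) and at the Zfp704 region (-0.51). The causes were not tested. With the replicate number as a block, 27484 regions passed (13028 and 14456). The numbers do not pair the libraries, since the deviations of same-numbered libraries had a correlation of -0.02.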
